A study of Mus musculus with 12 samples.

Results

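Histone genes were examined in RNA-Seq counts from murine jejunal enteroids, small epithelial organoids grown from intestinal crypts. The genes were chosen by symbol: canonical histone genes begin with Hist1h, Hist2h, Hist3h or Hist4h, and variant histone genes begin with H1f, H2af or H3f. The choice gave 71 of the 18929 genes listed in the deposited count tables, with 59 canonical genes, 11 variant genes and 1 antisense gene, H3f3aos, which is kept apart. All 71 were listed for both mutants. Enteroids of 3 genotypes were compared with 4 libraries each: villin-Cre controls, which the labels call wild-type, Hdac1-deleted enteroids and Hdac2-deleted enteroids. The mutants come from floxed Hdac1 or floxed Hdac2 mice crossed with a villin-Cre transgene, whose villin promoter drives the recombinase in intestinal epithelium, on a mixed background of C57BL/6J, 129SV and CD1. All cultures were kept for 5 days in ENR medium, which contains EGF, Noggin and R-spondin. Crypts were taken from a single mouse of each genotype, so genotype, mouse and enteroid line cannot be told apart. Nothing in the labels says that the 4 libraries of a group came from separate mice, and the p-values measure only the spread between these libraries.

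HDAC1 and HDAC2 are deacetylases that remove acetyl groups from lysines of the histone tails, so the genes described here encode the proteins on which both enzymes act. Nucleosomes wrap DNA around an octamer of the core histones H2A, H2B, H3 and H4, and linker histone H1 binds where DNA enters and leaves. Canonical histone genes are clustered, mostly lack introns and are transcribed during DNA replication, and their mRNAs usually end just after a conserved stem-loop instead of a poly(A) tail. Variant histone genes lie alone, are expressed throughout the cell cycle, usually have introns and make polyadenylated mRNA. The libraries were made from poly(A)-selected RNA, which retains polyadenylated transcripts, so counts of canonical genes report mainly the transcripts that carry a tail.

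The stem-loop sequences are shown because an mRNA that ends just after this element has no poly(A) tail for the selection to hold. The letters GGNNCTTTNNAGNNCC were searched on the transcript strand only, after the stop codon, in the GENCODE M21 transcripts of the 57 canonical and 11 variant genes found in that annotation on GRCm38. Entries with no annotated coding sequence were searched over the whole transcript. The letters were found in 37 of the 57 canonical genes, 24 to 58 bases after the stop codon, and in 1 variant gene. Of all 55450 genes with a transcript sequence, 0.364% held these letters anywhere in a transcript. Each sequence is 16 bases of DNA letters from 5′ to 3′, with the 6 paired bases on either side in capitals and the 4 bases of the loop in lower case.
Hist1h1c, Hist1h2ae, Hist1h2be, Hist2h3c2, Hist3h2a and 17 other genes: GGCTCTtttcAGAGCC
Hist1h4c and 5 other H4 genes: GGCCCTtttcAGGGCC
Hist1h3c and 4 other H2B and H3 genes: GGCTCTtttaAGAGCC
Hist1h4i and Hist2h4: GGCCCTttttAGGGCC
Hist1h4b and Hist1h4j: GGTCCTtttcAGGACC
H2afx: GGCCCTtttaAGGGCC
The stem of the H4 genes differed from that of the linker, H2A, H2B and H3 genes in every one of these sequences, and the stem of H2afx, a variant gene, was the one shared by 8 H4 genes. The remaining 20 canonical genes had no match, and 14 of them have no bases, or at most 2, annotated after a stop codon. The 14 include pseudogenes and a lincRNA (long non-coding RNA) entry of Hist2h2bb, which have no annotated coding sequence. The transcripts of the others among the 14, as annotated, could not hold the letters after the stop codon. Hist1h2bc and Hist2h2be, the canonical genes with the highest counts after Hist1h1c, have longer annotated ends and no match in them.

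The libraries held 20693200 to 30658628 reads assigned to genes, and their TMM scaling factors were 0.981 to 1.02. A count of 3 equals 0.0979 to 0.145 CPM (counts scaled to library size) in these libraries and was taken as the floor of detection for counting error only. Hdac1 itself fell from 90.5 ± 2.87 CPM (SD, n = 4) in controls to 4.23 ± 0.841 in Hdac1-deleted enteroids. Hdac2 fell from 137 ± 4.39 to 75.9 ± 2.84 CPM in Hdac2-deleted enteroids. The paper reports the deletion of Hdac2 there by RT-PCR, Western blot and immunofluorescence, and why reads remained was not tested. Each gene was also lower than control in the other mutant, with Hdac1 at 75.3 ± 4.41 CPM in Hdac2-deleted and Hdac2 at 112 ± 3.70 in Hdac1-deleted enteroids. All 12 epithelial markers were listed, at 8456 to 9071 summed CPM in every library, while fibroblast and leukocyte markers (3 listed of 7 and 3 of 6) stayed at or under 5.57 CPM in sum. The 3 listed leukocyte markers summed to 1.12 to 1.61 CPM in controls, 2.27 to 3.42 in Hdac1-deleted and 2.56 to 3.52 in Hdac2-deleted libraries. The pan-leukocyte marker Ptprc had at most 4 counts in any library, so the other listed leukocyte markers carried most of this sum and of its rise. The part of these cells in the histone counts was not tested.

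Canonical histone genes had few reads. Their mean count over the 12 libraries had a median of 4.67 (range 1.42 to 897), 34 of 59 never exceeded 10 counts in a library, and 6 had a mean of at least 50. Variant genes had a median of 2819 (range 2.33 to 14557). Per kilobase of exon, the median level was 0.248 CPM per kb for canonical genes and 63.4 CPM per kb for variant genes. Canonical genes together took 0.0061% to 0.0104% of the counted reads of a library, and variant genes 0.197% to 0.233%. The level of a gene in a bulk library does not separate fewer cells of a type from less RNA per cell.

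**Figure D1:**
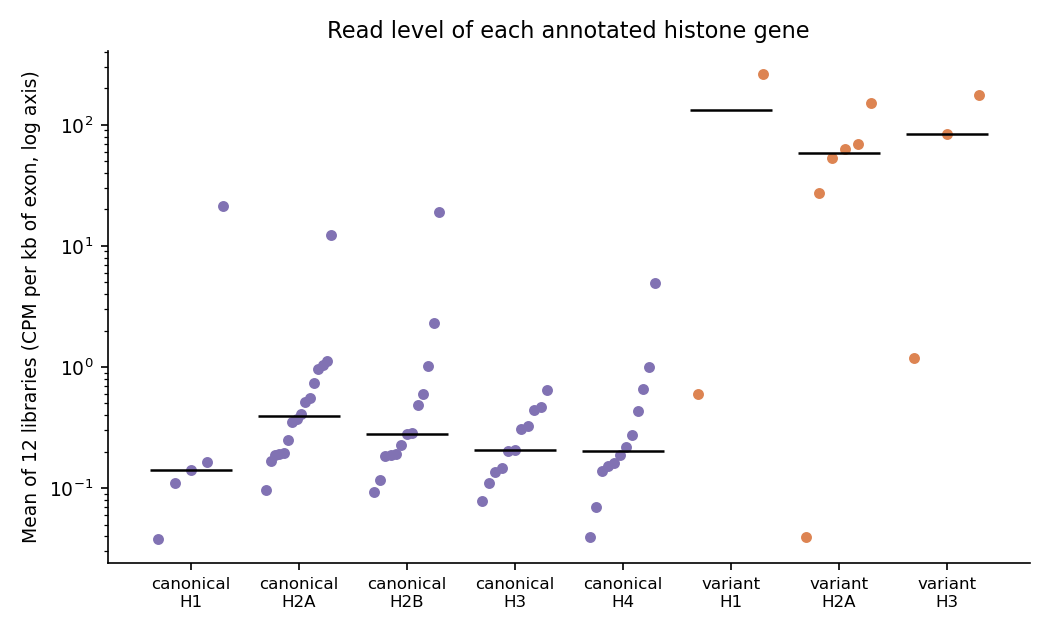
Mean level of each annotated histone gene over 12 libraries, in CPM per kilobase of exon on a log axis, by class and histone family, with each gene as a point and the family median as a line. Canonical families lie mostly below 1 CPM per kb, with single genes far above (Hist1h1c at 21.4), and 8 of 11 variant genes lie above 27 CPM per kb.

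The reads of the canonical class were carried by a few genes. Hist1h1c (linker histone H1.2), Hist1h2bc and Hist2h2be (both H2B) held 68.7% to 78.9% of canonical reads in each library. With Hist1h2al, Hist1h4i (H4) and Hist3h2a (H2A) added, the share was 80.6% to 89.6%. By family, the mean counts of the 11 H3 genes reached only 12.2, whereas the H1, H2A, H2B and H4 families each held at least 1 gene with a mean above 97. In the H2A family that gene was Hist1h2al, annotated as a processed pseudogene, and Hist3h2a came next with a mean of 64.5.

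Annotated transcript ends were set beside the level. The 21 canonical genes whose longest annotated transcript ends within 200 bases of the stem-loop had mean counts of 1.42 to 13.9, with a median of 4.58. In 16 genes the annotated transcript ran 330 to 4884 bases past the stem-loop, and 3 of these had a mean of at least 50: Hist1h1c (840 bases further), Hist1h4i (330) and Hist3h2a (1643). Hist1h1c and Hist3h2a also have the poly(A) signal AATAAA in their last 40 bases. Of the other 3 genes with a mean of at least 50, Hist2h2be has a single exon of 2620 bases ending with AATAAA, Hist1h2bc has a spliced transcript of 2 exons, and Hist1h2al is annotated as a processed pseudogene. The 16 genes with a longer end had a median of 5.71, close to that of the 21. The 11 canonical genes with AATAAA in the last 40 bases had a median of 4.67 and the 46 without it 4.58, with 3 genes of mean at least 50 in each set. The read counts cannot show which end a transcript used.

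**Figure D2:**
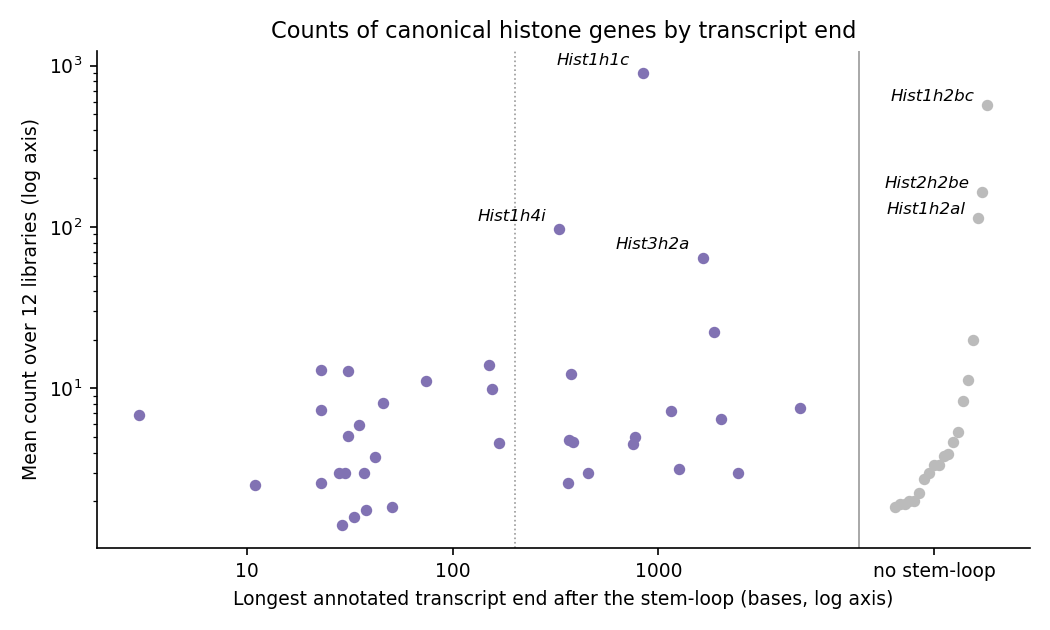
Mean count over 12 libraries (log axis) of the 57 annotated canonical genes against the length of the annotated transcript after the stem-loop in bases (log axis), with genes that have no stem-loop match in a separate strip ordered by count; the dotted line marks 200 bases. Genes left of the line stay below 14 counts, and the 6 named genes lie right of it or in the strip.

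Sequence similarity limits several of these counts. Windows of 100 bases, the read length, were compared between each gene's transcripts and those of all other genes. In 22 annotated canonical genes over 50% of windows also occurred in another gene, and none of these had a mean count above 12.8. The share was 5.07% for Hist1h1c, 25.4% for Hist1h2bc, 0% for Hist2h2be, 19.2% for Hist1h2al and 61.6% for Hist2h3c2, whose counts are uncertain for that reason. How the counting treated shared reads is not given in the sources used here.

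Canonical histone reads were higher in both mutants, through Hist1h1c in both and Hist1h2bc in Hdac2-deleted enteroids. The summed level of the 59 genes was 62.8 ± 2.50 CPM in controls, 84.0 ± 1.94 in Hdac1-deleted and 100.9 ± 3.71 in Hdac2-deleted enteroids (SD, n = 4 each). The control libraries (60.8 to 66.1), the Hdac1-deleted libraries (81.6 to 85.7) and the Hdac2-deleted libraries (97.9 to 106.1) did not overlap. The log2 ratio to control was 0.42 in Hdac1-deleted enteroids and −0.09 when Hist1h1c was left out. In Hdac2-deleted enteroids it was 0.68, and 0.48 without Hist1h1c. The 53 canonical genes outside the 6 most abundant summed to 11.1 ± 0.967 CPM in controls, 11.1 ± 0.361 in Hdac1-deleted and 11.2 ± 1.61 in Hdac2-deleted enteroids, which is a difference smaller than the spread between libraries. The summed level of the 11 variant genes was 2238 ± 81.0, 2028 ± 55.5 and 2057 ± 34.0 CPM in the same order, and neither mutant overlapped the controls. No test was made on sums, because the genes were chosen with results of these data known.

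**Figure D3:**
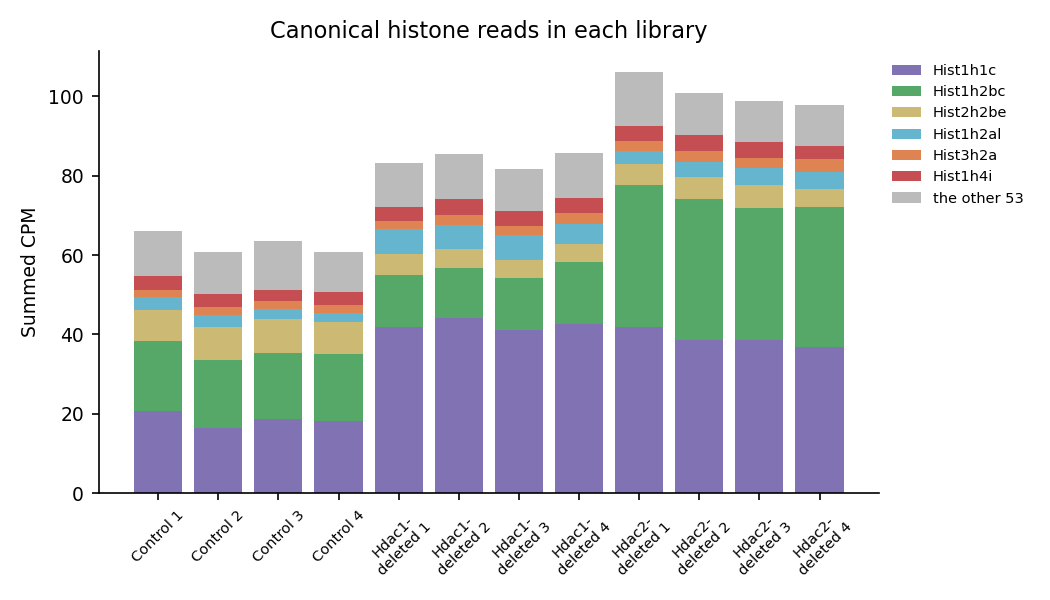
Summed CPM of the 59 canonical histone genes in each of the 12 libraries, stacked by the 6 genes with the highest mean count and the other 53 together. The Hist1h1c segment is taller in all 8 mutant libraries than in controls, the Hist1h2bc segment is taller in the 4 Hdac2-deleted libraries only, and the grey segment is about the same height throughout.

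In Hdac1-deleted against control enteroids, 15 canonical genes had enough counts to be tested by edgeR's quasi-likelihood test and the other 44 did not pass the filter on low counts. With the adjusted p no higher than 0.05 and the change over 2-fold, 4 canonical genes rose (Hist1h1c, Hist1h2al, Hist2h3c2 and a lincRNA entry of Hist2h2bb) and 1 fell (Hist1h2ae). Of all 14246 genes tested, 6.87% rose and 3.71% fell by this rule. The lincRNA entry is the non-coding gene Gm42743 in GENCODE M21 and counts as canonical by its deposited symbol only. With no limit on the fold change, 6 of the 15 rose, 4 fell and 5 did not pass, where 32.7% of all genes rose and 31.9% fell. Of 10 variant genes tested, 1 fell over 2-fold (H1fx) and none rose. With no limit on the fold change, 7 variant genes fell, 1 rose and 2 did not pass. The median log2 fold change was 0.27 over the tested canonical genes and −0.18 over the tested variant genes, against −0.0040 over all tested genes. Hist2h3c2 and the lincRNA entry of Hist2h2bb passed the filter through the mutant libraries, and Hist1h2ae and Hist1h3c through the controls, the group in which each is high, so these counts and medians are a description only.

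In Hdac2-deleted against control enteroids, 13 canonical genes were tested, of which 2 rose over 2-fold (Hist1h1c and Hist1h2bc) and none fell, where 5.45% of all 14007 genes tested rose and 2.84% fell. With no limit on the fold change, 5 canonical genes rose, 2 fell and 6 did not pass, with 31.4% and 30.9% of all genes as background. Of 10 variant genes, H1fx fell over 2-fold, 7 fell with no fold limit, 1 rose and 2 did not pass. The medians were 0.27 for canonical genes, −0.23 for variant genes and −0.0036 for all genes. Here the lincRNA entry of Hist2h2bb passed the filter through the mutant libraries, and Hist1h2ao, H1fx and H3f3aos through the controls. Each is high in the group named, so these counts and medians are also a description only. Both comparisons use the same 4 control libraries, so their changes are not independent of each other. The mutants themselves share no library and were also compared directly, in a fit of all 12 libraries.

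Among canonical linker histones, Hist1h1c had the most reads, and it rose in both mutants. Hist1h1c lies on chromosome 13, at chr13:23738808-23740367 on the plus strand (GRCm38), and has a single exon. Its counts were 620, 467, 566 and 434 in controls 1 to 4, 1118, 1360, 1255 and 1170 in Hdac1-deleted libraries, and 1139, 991, 794 and 852 in Hdac2-deleted libraries. Every mutant library lay above every control. The log2 fold change by edgeR was 1.21 (SE 0.06, adjusted p = 3.7e-13) in Hdac1-deleted and 1.08 (SE 0.06, adjusted p = 2.0e-12) in Hdac2-deleted enteroids. The direct difference between the mutants was 0.12 (SE 0.05) and did not pass by edgeR (adjusted p = 0.063). The other 4 canonical H1 genes did not pass the filter in either mutant, with mean counts of 2.25 to 7.5.

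The 250 bases before the RefSeq start of Hist1h1c (symbol H1f2 there) are shown because this gene carried most of the canonical rise in Hdac1-deleted enteroids. They lie at chr13:23738557-23738806 on the plus strand of GRCm38.p6, with an AAACACA element, known as the H1 box, and a CCAAT element in capitals.
Hist1h1c: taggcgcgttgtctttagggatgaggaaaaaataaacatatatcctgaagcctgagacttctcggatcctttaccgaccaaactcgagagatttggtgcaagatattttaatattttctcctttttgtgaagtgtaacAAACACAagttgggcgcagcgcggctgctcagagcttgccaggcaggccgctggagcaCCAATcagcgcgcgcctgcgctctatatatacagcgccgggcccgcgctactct
These 2 elements and the TATA box were searched on both strands of the same window in all 27025 genes with a RefSeq promoter entry. No element contains another. The H1 box was found in 4 of 5 canonical H1 genes, in 5 of 49 canonical genes and in 7.20% of all genes. The CCAAT element was found in 40 of 49 canonical genes, in 5 of 9 variant genes and in 37.5% of all genes. The TATA box, searched as the letters TATAAA, was found in 23 of 49 canonical genes, in 1 of 9 variant genes and in 14.3% of all genes. The Hist1h1c window had no TATA box by these letters. A match describes letters only and no factor was measured.

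H1fx (chr6:87980421-87981637, minus strand) and H1f0 (chr15:79028450-79030504, plus strand) encode the variant linker histones H1.10 and H1.0, the latter known for its accumulation in differentiated cells. The counts of H1fx were 45, 42, 36 and 24 in controls, 20, 21, 20 and 13 in Hdac1-deleted and 5, 8, 4 and 9 in Hdac2-deleted libraries. The 3 groups did not overlap, and Hdac2-deleted libraries were lowest. By edgeR, H1fx fell by 1.01 on the log2 scale (SE 0.22, adjusted p = 4.2e-04) in Hdac1-deleted and fell by 2.24 (SE 0.28, adjusted p = 6.1e-07) in Hdac2-deleted enteroids. The mutants differed by 1.23 (SE 0.32, adjusted p = 0.0024 by edgeR), with the Hdac1-deleted group higher. Only 1 Hdac2-deleted library reached the filter level, which H1fx passed there through the controls, where it is high. Its change in Hdac2-deleted enteroids and the direct difference are therefore a description only. The Hdac1 change lay at the 2-fold limit: it was −0.89 to −1.10 under the alternatives and under 2-fold with the replicate block and without control replicate 1 or 2 or Hdac1-deleted replicate 4. H1fx overlaps the annotated genes Gm47286 on its own strand and Gm5577 on the opposite strand.
H1f0 had the highest level of all histone genes, 263 CPM per kb on average. Its counts were 13000 to 16478 in controls, 13405 to 15877 in Hdac1-deleted and 11475 to 15775 in Hdac2-deleted libraries, or 542 ± 8.69, 510 ± 8.01 and 567 ± 11.1 CPM (SD, n = 4). On the CPM scale the Hdac1-deleted libraries were below and the Hdac2-deleted libraries above every control. The changes were small, at −0.08 (SE 0.03, adjusted p = 0.035) and 0.08 (SE 0.03, adjusted p = 0.024), and the direct difference was −0.15 (SE 0.03, adjusted p = 6.9e-05, edgeR).

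The canonical H2A genes were led by Hist1h2al and Hist3h2a. Hist1h2al (chr13:51202727-51203065, minus strand) lies away from the Hist1 cluster and is annotated as a processed pseudogene. It overlaps the annotated gene Gm44341 on the opposite strand. Its counts were 97, 89, 74 and 52 in controls, 168, 181, 186 and 140 in Hdac1-deleted and 88, 101, 85 and 95 in Hdac2-deleted libraries. Every Hdac1-deleted library was above every control by count, whereas the counts of Hdac2-deleted libraries overlapped the controls. By edgeR, Hist1h2al rose by 1.09 (SE 0.12, adjusted p = 2.0e-07) in Hdac1-deleted and 0.48 (SE 0.14, adjusted p = 0.0049) in Hdac2-deleted enteroids. The mutants differed by 0.61 (SE 0.12, adjusted p = 1.3e-04). Without control replicate 4, the Hdac1 change was 1.00 and no longer over 2-fold.
Hist1h2ae moved the other way in Hdac1-deleted enteroids. This gene of the Hist1 cluster (chr13:23570517-23571220, minus strand) encodes a replication-dependent H2A. It overlaps the annotated gene Gm44394 on the opposite strand. Its counts were 23, 26, 26 and 12 in controls, 4, 5, 8 and 9 in Hdac1-deleted and 17, 14, 11 and 12 in Hdac2-deleted libraries. All 4 Hdac1-deleted libraries were below all others and under the filter level, which the gene passed through the controls, and the Hdac2-deleted libraries overlapped the controls. The log2 fold change was −1.75 (SE 0.31, adjusted p = 6.5e-05, edgeR) in Hdac1-deleted and −0.45 (SE 0.26, adjusted p = 0.13) in Hdac2-deleted enteroids, with a direct difference of −1.30 (SE 0.33, adjusted p = 0.0024).
Hist3h2a, an H2A gene on chromosome 11 that overlaps Trim17 on the same strand, had 51, 56, 67 and 51 counts in controls, 53, 81, 70 and 73 in Hdac1-deleted and 71, 70, 55 and 76 in Hdac2-deleted libraries. It rose in Hdac2-deleted enteroids by 0.50 (SE 0.14, adjusted p = 0.0043, edgeR). In Hdac1-deleted enteroids its change of 0.27 (SE 0.14) did not pass (adjusted p = 0.11), and the direct difference of −0.24 (SE 0.14) did not pass either (adjusted p = 0.17).

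Of the H2B genes, Hist1h2bc changed in opposite directions. Hist1h2bc (chr13:23684199-23692908, plus strand) had 528, 487, 503 and 400 counts in controls, 349, 394, 397 and 429 in Hdac1-deleted and 970, 907, 687 and 812 in Hdac2-deleted libraries. All Hdac2-deleted libraries lay above all others, and on the CPM scale the Hdac1-deleted libraries (12.8 to 15.6 CPM) lay below all controls (16.6 to 17.7). By edgeR, it fell by 0.32 on the log2 scale (SE 0.07, adjusted p = 3.5e-04) in Hdac1-deleted enteroids and rose by 1.04 (SE 0.05, adjusted p = 6.8e-14) in Hdac2-deleted enteroids. The direct difference was −1.36 (SE 0.06, adjusted p = 1.5e-16), the largest between the mutants among tested histone genes.
Hist2h2be (chr3:96221119-96223738, plus strand) fell in both. Its counts were 229, 235, 259 and 192 in controls, 138, 148, 140 and 128 in Hdac1-deleted and 140, 139, 123 and 104 in Hdac2-deleted libraries, with every mutant library below every control. The log2 fold change was −0.75 (SE 0.08, adjusted p = 1.5e-07) and −0.62 (SE 0.09, adjusted p = 4.5e-06) by edgeR, with a direct difference of −0.13 (SE 0.10, adjusted p = 0.29).

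**Figure D4:**
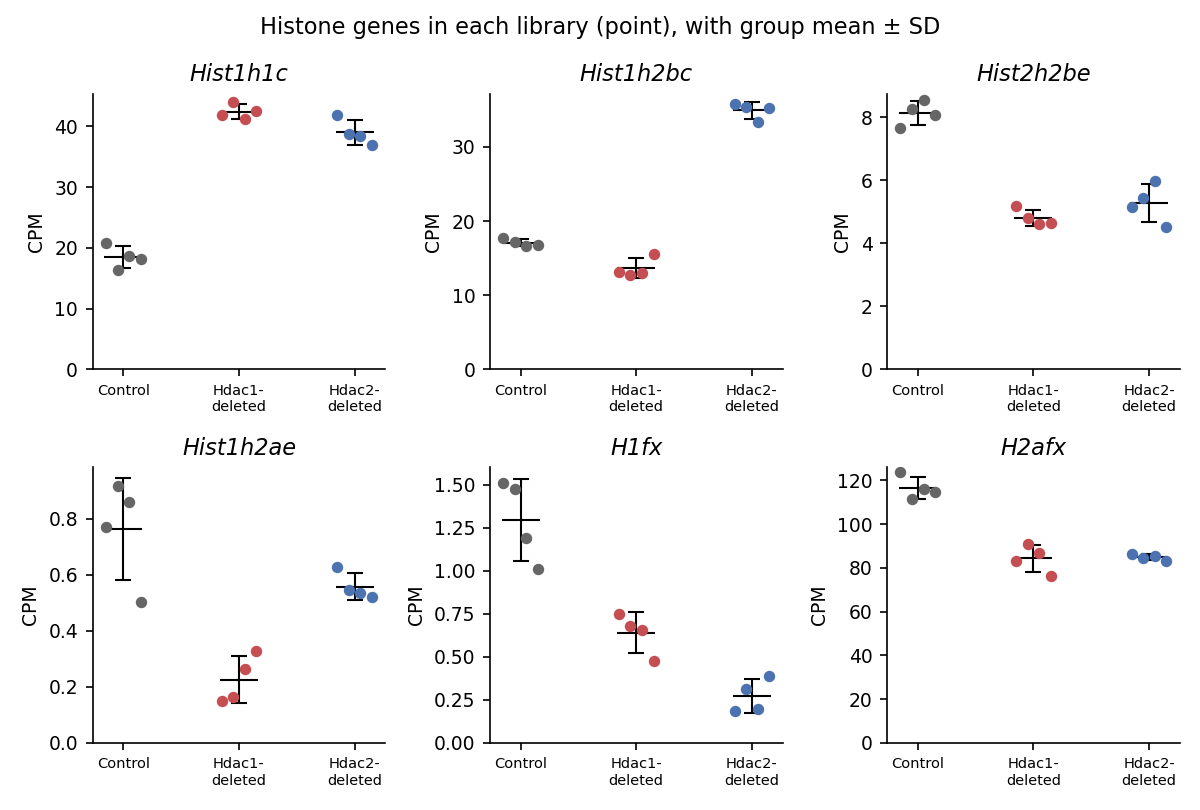
CPM of 6 histone genes in each library (points), with the group mean and SD (n = 4), on linear axes from 0. Hist1h1c is higher in both mutants, Hist1h2bc lower in Hdac1-deleted and higher in Hdac2-deleted, Hist2h2be, H1fx and H2afx lower in both, and Hist1h2ae lower in Hdac1-deleted enteroids.

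Of the other 13 H2B rows, the entry Hist2h2bb with the biotype lincRNA (chr3:96269721-96279001, plus strand), which overlaps the protein-coding Hist2h2bb, had the largest rise in Hdac1-deleted enteroids. GENCODE M21 lists this entry as Gm42743, a non-coding gene apart from Hist2h2bb, and it counts as canonical by its deposited symbol only. It had 15, 9, 10 and 7 counts in controls, 36, 27, 36 and 40 in Hdac1-deleted and 19, 14, 15 and 12 in Hdac2-deleted libraries. Its Hdac1-deleted libraries lay above all others, and only 1 control library reached the filter level. By edgeR it rose by 1.73 (SE 0.26, adjusted p = 6.9e-06) and 0.77 (SE 0.29, adjusted p = 0.026), with a direct difference of 0.95 (SE 0.24, adjusted p = 0.0017). The protein-coding Hist2h2bb itself had a mean of 3.00 counts and was not tested. Other genes share 100% of its windows, so this count cannot be read as its own level. Hist1h2be, which overlaps Hist1h1e, rose by 0.74 (SE 0.26, adjusted p = 0.019) in Hdac1-deleted enteroids, and its 0.51 (SE 0.29) in Hdac2-deleted enteroids did not pass (adjusted p = 0.13).

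The H3 and H4 genes had low counts. Hist2h3c2, an H3 gene on chromosome 3, had 8, 8, 8 and 2 counts in controls, 11, 17, 22 and 15 in Hdac1-deleted and 28, 11, 12 and 5 in Hdac2-deleted libraries. It rose by 1.28 (SE 0.34, adjusted p = 0.0024, edgeR) in Hdac1-deleted enteroids, where it passed the filter through the mutant libraries, and it was not tested against control in Hdac2-deleted enteroids. The direct difference was −0.04 (SE 0.34, adjusted p = 0.94). Hist1h3c, another H3 gene, had 19, 10, 16 and 13 counts in controls, 9, 11, 9 and 6 in Hdac1-deleted and 20, 9, 6 and 6 in Hdac2-deleted libraries. All groups overlapped. Hist1h3c fell by 0.75 (SE 0.30, adjusted p = 0.036, edgeR) in Hdac1-deleted enteroids, and its −0.27 (SE 0.34) in Hdac2-deleted enteroids did not pass (adjusted p = 0.50). Only 1 Hdac1-deleted library of Hist1h3c reached the filter level, which it passed through the controls, so its fall there is a description only. Hist1h4i, the H4 gene with the most reads, had 79 to 108 counts in controls, 96 to 123 in Hdac1-deleted and 79 to 104 in Hdac2-deleted libraries. Its log2 fold change was 0.27 in both comparisons (SE 0.12 each), which passed in Hdac1-deleted (adjusted p = 0.047) and not in Hdac2-deleted enteroids (adjusted p = 0.061, edgeR). The direct difference was 0.00073 (SE 0.11, adjusted p = 1.00), with a mean of 3.81 CPM in both mutants.

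Variant H2A genes mostly fell, by less than 1.5-fold. H2afx encodes H2A.X, which is phosphorylated around DNA breaks, and its mRNA can end at a stem-loop or at a poly(A) site. Its counts were 3694, 3170, 3515 and 2731 in controls, 2215, 2811, 2646 and 2099 in Hdac1-deleted and 2348, 2159, 1758 and 1919 in Hdac2-deleted libraries. On the CPM scale the mutants (76.3 to 91.0) lay below the controls (112 to 124). It fell by 0.45 in each comparison (SE 0.05 and 0.03, adjusted p = 1.2e-07 and 3.2e-10, edgeR).
H2afy encodes macroH2A1, which carries a large globular domain and is enriched on silent chromatin. H2afy fell by 0.33 (SE 0.04, adjusted p = 8.1e-08) in Hdac1-deleted and by 0.27 (SE 0.03, adjusted p = 9.5e-08) in Hdac2-deleted enteroids. Its CPM ranged from 212 to 224 in controls, 159 to 176 in Hdac1-deleted and 172 to 183 in Hdac2-deleted libraries, so neither mutant overlapped the controls.
H2afz and H2afv encode the H2A.Z proteins H2A.Z.1 and H2A.Z.2, which are placed at promoters. H2afz fell by 0.20 (SE 0.04, adjusted p = 1.2e-04) and by 0.26 (SE 0.04, adjusted p = 1.4e-06), from 298 ± 15.5 CPM in controls to 256 ± 10.5 and 246 ± 8.77 (SD, n = 4; edgeR). H2afv rose by 0.25 (SE 0.05, adjusted p = 1.2e-04) in Hdac1-deleted enteroids and fell by 0.11 (SE 0.05, adjusted p = 0.038) in Hdac2-deleted enteroids. The CPM of H2afv was 92.3 to 111 in controls, 114 to 121 in Hdac1-deleted and 90.4 to 93.8 in Hdac2-deleted libraries, the last overlapping the controls. The direct difference of H2afv was 0.36 (SE 0.04, adjusted p = 1.9e-07), whereas that of H2afz was 0.06 (SE 0.04, adjusted p = 0.21, edgeR).
H2afj, an H2A variant gene, fell by 0.28 (SE 0.04, adjusted p = 1.1e-05) and by 0.25 (SE 0.04, adjusted p = 3.7e-06, edgeR). H2afy2, which encodes macroH2A2, had 0 to 5 counts in every library and was not tested.

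H3f3a and H3f3b encode the same replacement histone, H3.3, from separate loci. H3f3a had 7756 to 10128 counts in controls, 7483 to 9184 in Hdac1-deleted and 5608 to 7449 in Hdac2-deleted libraries, or 323 ± 12.7, 287 ± 8.52 and 277 ± 6.39 CPM (SD, n = 4). On the CPM scale neither mutant overlapped the controls, and it fell by 0.16 (SE 0.03, adjusted p = 6.0e-04) and 0.21 (SE 0.03, adjusted p = 5.2e-06, edgeR). H3f3b was more abundant per length (175 against 84.4 CPM per kb). H3f3b had 532 ± 22.4, 512 ± 13.8 and 519 ± 13.3 CPM, and its log2 fold changes of −0.04 (SE 0.04, adjusted p = 0.29) and −0.03 (SE 0.03, adjusted p = 0.51, edgeR) did not pass. Windows shared with other genes made up 20.8% of H3f3a and 1.92% of H3f3b. H3f3c, annotated as a processed pseudogene, had 7 to 20 counts and changes of 0.13 (SE 0.29) and 0.17 (SE 0.33), which did not pass (adjusted p = 0.70 and 0.67). H3f3aos overlaps H3f3a on the opposite strand, and since no source states that the counting used strand, its reads cannot be told apart from those of H3f3a. H3f3aos had 10 to 17 counts in controls and 4 to 8 in Hdac2-deleted libraries, where it fell by 0.96 (SE 0.34, adjusted p = 0.019, edgeR), while its −0.43 (SE 0.29) in Hdac1-deleted libraries did not pass (adjusted p = 0.21). No Hdac2-deleted library of H3f3aos reached the filter level, which it passed through the controls, so that fall is a description only.

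**Figure D5:**
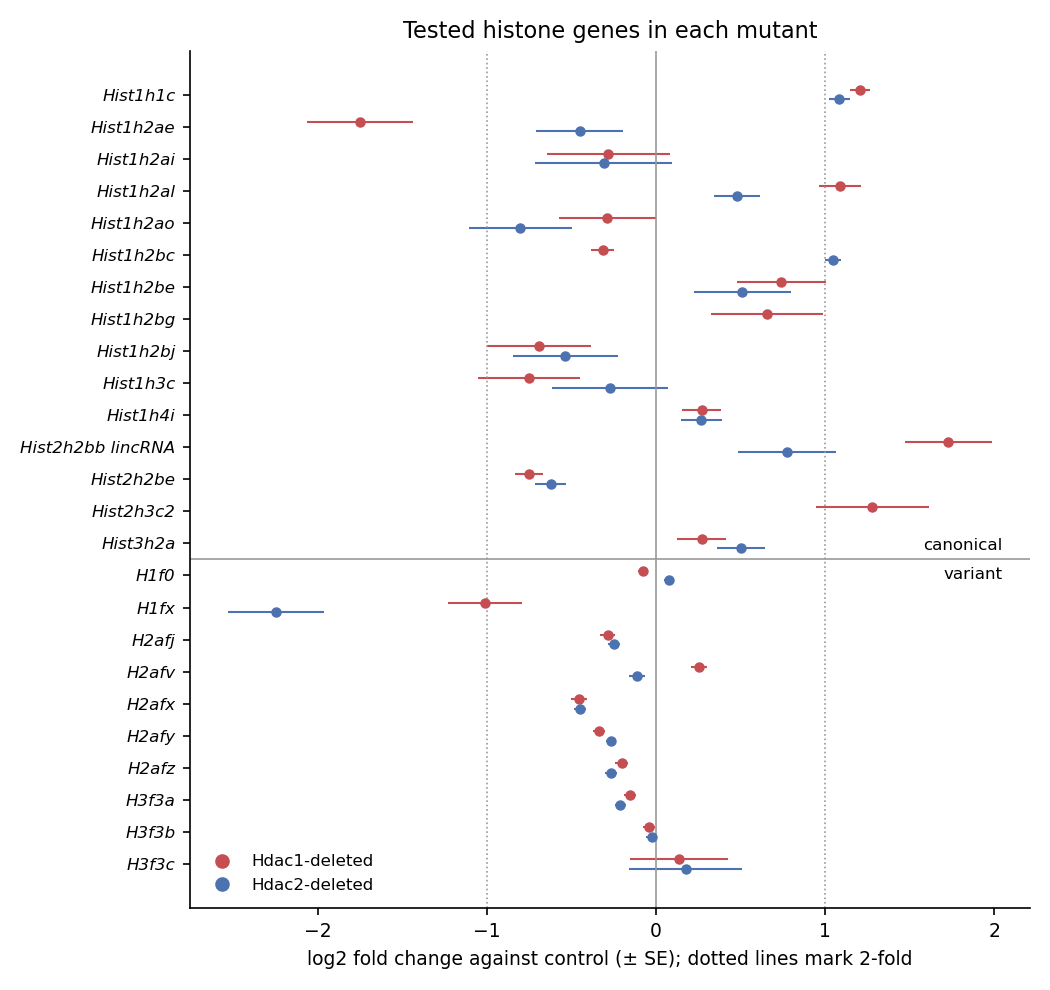
Log2 fold change against control (points, with SE as bars) of the 15 canonical and 10 variant genes tested in Hdac1-deleted (red) or Hdac2-deleted (blue) enteroids, with dotted lines at 2-fold. Hist1h1c lies to the right in both mutants, Hist1h2bc lies on opposite sides of 0, H1fx lies furthest left in Hdac2-deleted enteroids, and most variant genes lie between 0 and −0.5.

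Directly compared, Hdac1-deleted minus Hdac2-deleted, 2 of 15 tested canonical genes were lower over 2-fold (Hist1h2bc and Hist1h2ae) and none higher, and 1 of 10 variant genes was higher (H1fx). Of all 14510 genes tested, 2.74% were higher and 2.89% lower by this rule. By the filter level used against control, no Hdac1-deleted library of Hist1h2ae and only 1 Hdac2-deleted library of H1fx reached it. These are the low groups of the 2 genes, so their direct differences are a description only. With no fold limit, Hist1h2al and the lincRNA entry of Hist2h2bb were higher, H2afv was higher, and H1f0 was lower, and 22.3% of all genes were higher and 23.7% lower. The remaining 11 canonical and 7 variant genes did not pass, which does not show that their levels were equal. Where a count over 2-fold was 0 by edgeR, in these comparisons or against control, it was also 0 by DESeq2 and at an unadjusted p under 0.05.

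Genes that process histone mRNA were counted beside the histone genes. Of 23 tested genes on a list for stem-loop binding, 3′ end cleavage and histone gene transcription, 12 fell, 4 rose and 7 did not pass in Hdac1-deleted enteroids, with no limit on the fold change, where 31.9% of all tested genes fell and 32.7% rose. In Hdac2-deleted enteroids 18 fell, 2 rose and 3 did not pass, where 30.9% of all tested genes fell and 31.4% rose. The medians were −0.12 and −0.20, and none changed over 2-fold. Slbp, whose protein binds the stem-loop shown above, was at −0.05 (SE 0.04, adjusted p = 0.31) in Hdac1-deleted enteroids and fell by 0.28 (SE 0.04, adjusted p = 1.8e-06) in Hdac2-deleted enteroids, with a direct difference of 0.23 (SE 0.04, adjusted p = 3.0e-05, edgeR). Npat, the activator of histone gene transcription, fell by 0.17 (SE 0.05, adjusted p = 0.0058) and by 0.25 (SE 0.05, adjusted p = 2.5e-04). Casp8ap2, a component of histone locus bodies, was at −0.07 (SE 0.06, adjusted p = 0.33) and fell by 0.20 (SE 0.05, adjusted p = 0.0026, edgeR) in Hdac2-deleted enteroids. Coil, which encodes the Cajal body protein coilin, fell by 0.72 (SE 0.07, adjusted p = 3.9e-08) and by 0.67 (SE 0.07, adjusted p = 4.0e-08).

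The same count was made for histone chaperones, against the same shares of all genes (31.9% lower and 32.7% higher in Hdac1-deleted, 30.9% and 31.4% in Hdac2-deleted enteroids). Of 29 tested, 19 fell, 3 rose and 7 did not pass in Hdac1-deleted enteroids (median −0.14), and 20 fell, 2 rose and 7 did not pass in Hdac2-deleted enteroids (median −0.21). The H2A and H2B chaperone gene Nap1l1 fell by 0.55 (SE 0.03, adjusted p = 1.9e-11) and by 0.58 (SE 0.03, adjusted p = 2.5e-13, edgeR). Npm1, which encodes nucleophosmin, fell by 0.66 (SE 0.04, adjusted p = 3.0e-12) and by 0.47 (SE 0.03, adjusted p = 1.3e-10, edgeR).

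Replication genes give the state of the S phase transcripts beside these histone counts, with the same shares of all genes as background (31.9% and 30.9% lower, 32.7% and 31.4% higher). Of 26 tested, 18 fell, 2 rose and 6 did not pass in Hdac1-deleted enteroids (median −0.23), and 21 fell, 2 rose and 3 did not pass in Hdac2-deleted enteroids (median −0.39). Pcna, the replication clamp, rose by 0.17 (SE 0.04, adjusted p = 4.8e-04) and 0.14 (SE 0.04, adjusted p = 0.0017, edgeR). E2f2, an activator of replication genes, rose by 1.32 (SE 0.04, adjusted p = 1.2e-15) and 0.74 (SE 0.04, adjusted p = 8.7e-13). Mki67, a proliferation marker, was at 0.07 (SE 0.12, adjusted p = 0.66) and −0.12 (SE 0.12, adjusted p = 0.40, edgeR). Of 3 tested genes of histone-fold proteins at the centromere, outside the symbol rule, 1 fell in Hdac1-deleted and 3 fell in Hdac2-deleted enteroids, against 31.9% and 30.9% of all tested genes. The centromeric H3 variant gene Cenpa was at 0.10 (SE 0.04, adjusted p = 0.053) in Hdac1-deleted enteroids and fell by 0.27 (SE 0.04, adjusted p = 2.0e-05) in Hdac2-deleted enteroids, with a direct difference of 0.36 (SE 0.04, adjusted p = 1.6e-07, edgeR). The paper reports no significant change in proliferation of the mutant enteroids, measured by BrdU labelling. Any part of S phase cell number in the histone changes was not tested.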

How the data were processed

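RNA-Seq was performed on poly(A)-selected RNA from 12 enteroid libraries (paired reads of 100 bases). According to the submitters' processing notes, reads were aligned to GRCm38 with STAR (2.4.0f1); the counting program is not given in the sources used here. The authors deposited 1 table per mutant with raw, whole-number counts per gene, listing genes whose counts sum to 10 or more. Their normalized values, fold changes and p-values were deposited too and were not used. Counts were tested with edgeR 4.0.16 (R 4.3.3; quasi-likelihood F test with robust dispersion, TMM, filterByExpr, Benjamini-Hochberg adjustment over all tested genes). The SE is the log2 fold change over the root of the F statistic, and CPM was scaled by TMM over all 12 libraries. Calls needed an adjusted p no higher than 0.05 and a change over 2-fold. Transcript structure came from GENCODE M21 (69 of 71 genes matched) and promoters from RefSeq (GRCm38.p6). The text names every variant gene with a mean of at least 10 counts, every canonical gene called against control and the 8 canonical genes with the highest mean CPM. From each context list it names genes among the 3 with the largest changes, and always Slbp, Npat, Casp8ap2, Cenpa, Pcna and Mki67. Hist1h1e, Hist1h2ao, Hist1h4h and the genes printed with stem-loops were named after their values were seen. The genes and lists were chosen with earlier results of these data known. Scripts were tested on simulated data. Alternatives were DESeq2 1.42.0, other scalings, no filter, a replicate block, no fold limit, other sets of libraries and leaving out each library.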

Additional observations from a re-analysis of the deposited data

Results flagged for a closer look

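Groups of 4 libraries were tested for a library apart, 66 in all and most of them of named histone genes. Of these, 4 had 1 library apart from the other 3 by Dixon's 95% limit for 4 values (0.829), where chance gives about 1 in 20 groups. H2afy stood at 224 CPM in control replicate 1, H3f3b at 539 CPM in Hdac2-deleted replicate 1, Hist1h2bc at 15.6 CPM in Hdac1-deleted replicate 4, and Hist2h3c2 at 0.0840 CPM (2 counts) in control replicate 4.

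The mutants differed from each other over 2-fold for 3 genes, by edgeR's direct test in a fit of all 12 libraries. The test covered 15 canonical and 10 variant genes, and 2.74% of all 14510 genes were higher and 2.89% lower by the same rule. Hist1h2bc differed by −1.36 (adjusted p = 1.5e-16), Hist1h2ae by −1.30 (adjusted p = 0.0024) and H1fx by 1.23 (adjusted p = 0.0024), each as Hdac1-deleted minus Hdac2-deleted on the log2 scale. For Hist1h2bc the changes against control had opposite signs, and for H1fx both were negative. Hist1h2ae and H1fx lay mostly under the filter level in the mutant where each is lower, so their differences are a description only.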

How the results depend on the processing

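Low counts limit the canonical class most, since 44 of 59 genes were not tested in Hdac1-deleted enteroids. With no filter, the canonical genes that rose and fell over 2-fold became 7 and 5 in Hdac1-deleted enteroids (otherwise 4 and 1). In Hdac2-deleted enteroids 4 rose (otherwise 2), and 5 were lower in the direct comparison (otherwise 2). Among all genes with no filter, 1581 of 18676 rose and 754 fell over 2-fold in Hdac1-deleted enteroids. The corresponding numbers were 1170 of 18225 higher in Hdac2-deleted enteroids and 522 of 17972 lower in the direct comparison. With no fold limit, 4 canonical genes fell in Hdac1-deleted, 5 rose and 2 fell in Hdac2-deleted enteroids, and 2 were higher in the direct comparison. For variant genes, 1 rose and 7 fell in each mutant, and 2 were higher and 1 lower directly. The shares of all genes with no fold limit are those given with each comparison above. Leaving out the members annotated as pseudogene or lincRNA, a choice made after seeing the data, left 2 canonical genes that rose in Hdac1-deleted enteroids. The labels give the 3 groups the same replicate numbers. Same-numbered libraries had correlations of −0.05 to 0.09 between their deviations over 12 pairs, and differently numbered ones −0.09 to 0.13 over 36 pairs. Of 12 libraries, 4 correlated best with their own number in both other groups, a count that was not set against chance. The numbers were not taken as pairs, and a replicate block was run as an alternative. With the replicate block, 0 variant genes fell over 2-fold in Hdac1-deleted enteroids (H1fx lost, otherwise 1), and the block changed no other count. When each library was left out in turn, the variant count there was 0 to 1 (0 without control replicate 1 or 2 or Hdac1-deleted replicate 4), the canonical genes that rose in Hdac2-deleted enteroids 2 to 4 (4 without control replicate 4, with Hist1h1e and Hist2h3c2 added), and the canonical genes higher and lower directly 0 to 1 and 2 to 4. The lincRNA entry of Hist2h2bb was added without Hdac1-deleted replicate 2 or Hdac2-deleted replicate 1 or 3, and Hist1h1e and Hist1h4h together without control replicate 2, 3 or 4 or Hdac1-deleted replicate 2 or 4. Without the gene of highest mean CPM, the log2 ratio of summed canonical CPM was −0.092 in Hdac1-deleted and 0.48 in Hdac2-deleted enteroids, and that of variant CPM −0.19 in Hdac2-deleted enteroids, while with libraries left out, controls included, it was −0.13 to −0.098 (−0.098 without control replicate 1). Changes near 0 turned sign in some alternatives. With libraries left out, H3f3c ranged from −0.035 to 0.28 in Hdac1-deleted, from −0.19 to 0.39 in Hdac2-deleted enteroids and from −0.26 to 0.32 directly (0.0059 where its adjusted p was highest). In the direct comparison H2afx ranged from −0.039 to 0.039, Hist1h4i from −0.046 to 0.035 and Hist2h3c2 from −0.30 to 0.47. By library size alone, H2afx was 0.021 and H3f3b 0.0078, and with no filter Hist1h4i was −0.00090. The causes were not tested. Of the alternatives of single genes, 496 kept direction and side of the threshold, 18 fell short of it, 7 newly passed and 10 turned sign.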
